A study of Mus musculus with 12 samples.

Results

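The 10 genes described here are known targets or regulators of the coactivator YAP and the transcription factor SRF: the matrix genes Ccn1, Ccn2 and Ccn5, the YAP targets and regulators Ankrd1, Amotl2 and Lats2, and Srf itself with the actin-associated genes Tagln, Acta2 and Vcl. They were picked by gene symbol from a table of 27179 genes, with their difference between the groups of this study already known, and all 10 were found. Their fold changes are therefore given as a description, and where the members past the threshold of the fit over all genes are counted, the count is no evidence of its own. The data are RNA sequencing libraries of epididymal white adipose tissue (eWAT), the fat pad attached to the epididymis, from 12 male C57BL/6J mice fed chow. The 6 epinephrine mice received 0.5 mg/kg of epinephrine, the adrenal hormone, into the peritoneum and were listed at 18 to 23 weeks of age. The 6 vehicle mice received saline and were listed at 12 to 17 weeks. Fat was taken 1 h after injection in both groups. The listed ages do not overlap between the groups, so age and epinephrine cannot be told apart from the labels. They rise by exactly 1 week from each mouse to the next over both groups, a pattern that leaves the listed ages in doubt.

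YAP and its relative TAZ are transcriptional coactivators that act through TEAD proteins. The Hippo kinase cascade, which ends in the LATS kinases, phosphorylates YAP and keeps it out of the nucleus, and receptors coupled to different G proteins are known to raise or lower YAP activity. SRF binds a DNA element named the CArG box. It works with 2 kinds of partner: the TCF proteins, which respond to MAP kinases at immediate early genes, and the MRTF proteins, which respond to the state of the actin cytoskeleton. Ccn1 and Ccn2 are known targets of both pathways in cultured cells.

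Between 24821601 and 31731730 reads were assigned to genes in the epinephrine libraries and between 25442480 and 34405433 in the vehicle libraries. All 8 adipocyte markers were detected in every library, with summed levels of 11915 to 27450 CPM (assigned reads scaled to library size with TMM factors) with epinephrine and 8002 to 26926 CPM with vehicle. Transcripts of the epididymis were present in all libraries in very unequal amounts. The summed level of 10 epididymal genes ran from 28.6 to 28908 CPM with epinephrine and from 8.58 to 38576 CPM with vehicle. In 3 libraries, epinephrine 1, epinephrine 2 and vehicle 2, the epididymal gene Gpx5 alone took 1.09%, 0.930% and 1.98% of counts, against at most 0.398% elsewhere, and results are also given without them. A lower level in such whole-tissue RNA can come from fewer cells of a type or from less RNA per cell, and the libraries do not tell these apart.

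The stretches of DNA around the starts of these genes were searched because the 2 pathways are known by their binding elements. RefSeq promoter windows (GRCm38.p6, 250 bases before to 50 after each start) were found for 7 of the 10 members, Ccn1, Ankrd1, Amotl2, Lats2, Srf, Acta2 and Vcl, with 2 windows for Lats2. The TEAD element was searched as GGAATG and its reverse CATTCC, and the CArG box as its exact consensus, which reads alike on both strands. These windows follow 5′ to 3′ on the strand of each gene for 5 members, chosen to show each kind of match, with matches to both motifs in capitals. Srf is at chr17:46556113-46556412 (minus strand), Vcl at chr14:20929148-20929447 (plus), Ccn1 at chr3:145649936-145650235 (minus), Ankrd1 at chr19:36119795-36120094 (minus) and Amotl2 at chr9:102717554-102717853 (plus).
Srf: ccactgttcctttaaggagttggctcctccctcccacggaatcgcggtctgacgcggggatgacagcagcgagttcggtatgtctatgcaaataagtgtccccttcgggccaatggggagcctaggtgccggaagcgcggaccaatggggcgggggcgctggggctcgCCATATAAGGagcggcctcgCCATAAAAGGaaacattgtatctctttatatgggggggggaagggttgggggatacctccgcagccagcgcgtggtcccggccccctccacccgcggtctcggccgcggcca
Vcl: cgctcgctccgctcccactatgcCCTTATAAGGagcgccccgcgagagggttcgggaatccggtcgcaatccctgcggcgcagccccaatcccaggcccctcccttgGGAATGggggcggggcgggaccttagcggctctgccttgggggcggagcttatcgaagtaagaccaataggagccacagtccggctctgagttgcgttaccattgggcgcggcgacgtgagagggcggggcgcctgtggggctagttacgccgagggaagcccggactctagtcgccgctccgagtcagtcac
Ccn1: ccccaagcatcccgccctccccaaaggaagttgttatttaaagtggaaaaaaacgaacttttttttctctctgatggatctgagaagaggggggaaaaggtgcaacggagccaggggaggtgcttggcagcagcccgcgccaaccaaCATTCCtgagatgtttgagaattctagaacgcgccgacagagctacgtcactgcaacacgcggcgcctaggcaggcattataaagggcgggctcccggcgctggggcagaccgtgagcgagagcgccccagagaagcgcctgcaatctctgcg
Ankrd1: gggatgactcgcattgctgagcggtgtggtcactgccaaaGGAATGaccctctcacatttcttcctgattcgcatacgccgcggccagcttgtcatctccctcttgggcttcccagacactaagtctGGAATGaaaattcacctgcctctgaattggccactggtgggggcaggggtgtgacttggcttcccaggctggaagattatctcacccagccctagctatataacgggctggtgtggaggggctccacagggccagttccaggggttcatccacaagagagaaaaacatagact
Amotl2: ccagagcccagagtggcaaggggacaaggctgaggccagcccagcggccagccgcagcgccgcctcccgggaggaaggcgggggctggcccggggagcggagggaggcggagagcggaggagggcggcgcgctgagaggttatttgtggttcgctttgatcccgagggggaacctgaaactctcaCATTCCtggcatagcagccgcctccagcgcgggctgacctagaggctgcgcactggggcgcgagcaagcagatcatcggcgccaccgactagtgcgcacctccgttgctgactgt

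Srf had 2 CArG boxes, CCATATAAGG and CCATAAAAGG, starting 82 and 62 bases before its start, and Vcl had 1, CCTTATAAGG, 227 bases before. An exact CArG box was found in 1.63% of all 32851 windows of the table, and in 2 of the 8 windows of the members. GGAATG was found in 6 of those 8 windows, 1 each for Ccn1, Ankrd1, Amotl2, Lats2, Acta2 and Vcl, against 14.7% of all windows. Ankrd1 held it at 2 places, 210 and 123 bases before its start. The 2 motifs did not overlap in any of these windows. The members with GGAATG included Ccn1 and Ankrd1, which had the largest fold changes among the members, and Amotl2 and Lats2, whose fold changes were near 1. The cyclic AMP response element TGACGTCA, found in 1.79% of all windows, was in none of the 8. At so low a share, none in 8 windows was likely for any genes, so nothing is read from it. Shorter forms of this element were not searched. A match is a run of letters and not a shown binding site, and enhancers farther away were not searched. CArG boxes 1 letter off the consensus were not counted either, such as CCCTATATGG and CCTTGTTTGG in the Acta2 window, not printed here.

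The levels of the members differed widely before any comparison of the groups. Per length of gene, as FPKM (TMM-normalized CPM divided by the deposited gene length in kilobases), the order of means with epinephrine was Ccn1, Acta2, Amotl2, Tagln, Vcl, Srf, Ccn2, Lats2, Ccn5 and Ankrd1. Ccn1 led at 309 ± 145 FPKM and Ankrd1 was last at 1.09 ± 0.465 FPKM (SD, n = 6 each). With vehicle, Acta2 led at 90.1 ± 27.1 FPKM, followed by Amotl2 at 78.4 ± 30.7 FPKM (SD, n = 6 each). Tagln (45.3 to 68.5 FPKM in single libraries) and Vcl (38.4 to 48.6 FPKM) came next, and Ccn1, which led with epinephrine, stood below these 4 at 12.1 to 41.0 FPKM. Srf, Lats2 and Ccn2 lay between 6.92 and 22.7 FPKM in single vehicle libraries, Ccn5 between 1.63 and 6.31 and Ankrd1 between 0.119 and 0.262 FPKM. In both groups, the ranges of neighbours in the order overlapped, except that Ccn5 lay apart from the genes above it and Ankrd1 apart from Ccn5, and with epinephrine Lats2 lay apart from Ccn2.

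Ccn1 and Ccn2 encode secreted matricellular proteins that bind integrins and growth factors; their genes lie at chr3:145646971-145649985 and chr10:24595442-24598683 (GRCm38.p6). Ccn1 had a lowest level of 290 CPM, a median of 595 and a highest of 978 CPM in the epinephrine libraries, against 24.6, 48.8 and 83.1 CPM in the vehicle libraries. Every epinephrine library was above every vehicle library, and the lowest were epinephrine 1 and vehicle 2. The fitted log2 fold change was 3.60 (SE 0.39), a 12.2-fold difference. Ccn2 ranged from 57.6 through a median of 72.5 to 133 CPM with epinephrine, and from 23.6 through 32.2 to 36.5 CPM with vehicle. The groups did not overlap, and its log2 fold change was 1.48 (SE 0.24), a 2.80-fold difference. Epinephrine 5 and 6 held the highest Ccn2 of their group, at 123 and 133 CPM, while vehicle 4 and 6 held the lowest of theirs, at 25.1 and 23.6 CPM. Ccn1 has no overlapping gene in the RefSeq annotation, and Ccn2 shares 362 bases with a long noncoding RNA model.

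Ccn5, a family member that lacks the C-terminal domain of Ccn1 and Ccn2 and is known from mesenchymal precursor cells of fat, did not go with them. It was at 3.97, 5.14 and 8.21 CPM (lowest, median and highest) with epinephrine and 2.89, 5.19 and 11.2 CPM with vehicle. The groups overlapped throughout, and the log2 fold change was -0.14 (SE 0.31). The other family genes give the rest of the picture, and none of them passed the test in edgeR, or had an unadjusted p under 0.05 (0 of 2 tested). Ccn3 averaged 17.5 ± 6.49 CPM with epinephrine and 11.7 ± 3.75 CPM with vehicle (SD, n = 6 each), a log2 fold change of 0.58 with SE 0.31 and an adjusted p of 0.391 in edgeR. Its adjusted p was 0.0186 without the 3 libraries with high Gpx5 (edgeR, log2 fold change 0.68). Ccn4 averaged 1.61 ± 0.559 and 1.31 ± 0.582 CPM in the same order (SD, n = 6 each; edgeR adjusted p = 0.795 for a log2 fold change of 0.29 with SE 0.34), and Ccn6, at 0.0635 to 0.199 CPM with epinephrine and 0.13 to 0.219 CPM with vehicle, was under the filter on low counts.

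**Figure D1:**
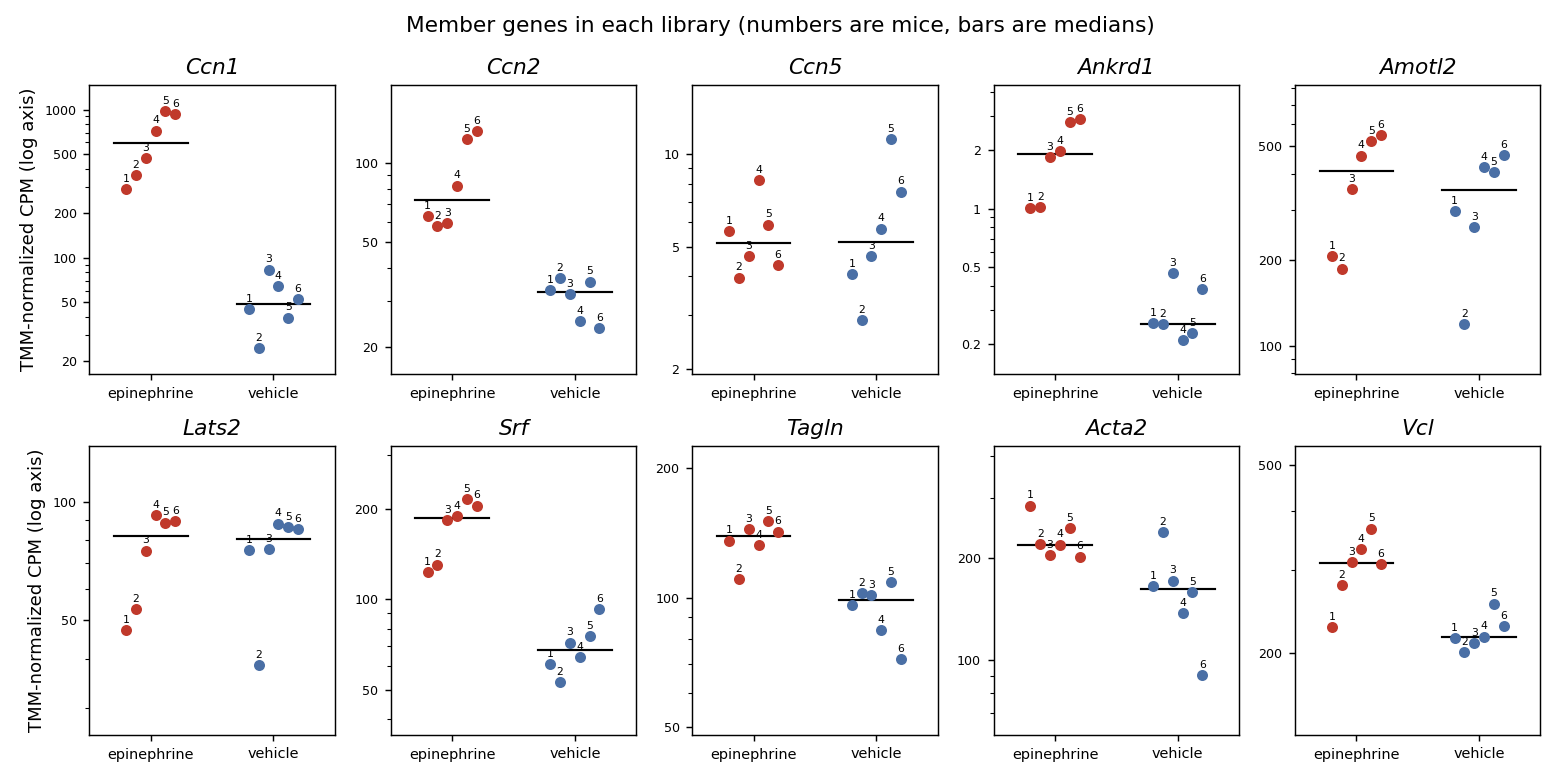
TMM-normalized CPM of the 10 members in each library on log axes, epinephrine left and vehicle right, with mouse numbers beside the points and medians as bars. Ccn1, Ccn2, Ankrd1, Srf and Tagln do not overlap between the groups, while Ccn5, Amotl2 and Lats2 overlap widely.

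Ankrd1, an ankyrin repeat protein of the nucleus and the sarcomere that is a standard YAP readout, was scarce in this fat. It was at 1.00, 1.91 and 2.90 CPM (lowest, median and highest) in epinephrine libraries and 0.210, 0.254 and 0.463 CPM in vehicle libraries. These values rest on 27 to 72 reads per library with epinephrine and 7 to 14 reads with vehicle. All epinephrine libraries were above all vehicle libraries, and the log2 fold change was 2.66 (SE 0.34). Only 2 vehicle libraries were past the level that the filter on low counts asks for, so the gene was kept through its epinephrine libraries and could hardly have been kept without a difference. On the deposited variance-stabilized values, which compress low levels, its difference was 0.52. Ankrd1 is also a heart and muscle gene. Of 8 skeletal and cardiac muscle markers 5 were tested and 0 passed in edgeR (2 at an unadjusted p under 0.05). Of these 5, 3 had a positive and 2 a negative log2 fold change. Among the 8, 2 were at 0 in some libraries and none in all. Their summed level was 41.2 to 72.9 CPM with epinephrine and 14.0 to 52.9 CPM with vehicle. In most libraries most of this sum was Acta1 alone, at 34.5 to 69.2 CPM with epinephrine and 5.60 to 51.3 CPM with vehicle. The part of these markers in the Ankrd1 difference was not tested.

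Amotl2, an angiomotin-family scaffold, and the kinase Lats2 both restrain YAP and are themselves YAP targets. Amotl2 was at 186, 410 and 547 CPM (lowest, median and highest) with epinephrine and 119, 351 and 465 CPM with vehicle, and the log2 fold change was 0.21 (SE 0.36). Lats2 was at 47.1, 81.8 and 92.4 CPM with epinephrine and 38.4, 80.5 and 87.9 CPM with vehicle, with a log2 fold change of -0.01 (SE 0.22). Both overlapped between the groups. Lats2 shares 7626 bases with the predicted gene Gm52140. In both genes the lowest libraries were epinephrine 1, epinephrine 2 and vehicle 2, those with high Gpx5. Without these 3 libraries the log2 fold changes were 0.35 for Amotl2 and 0.08 for Lats2.

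Srf had 123, 186 and 215 CPM (lowest, median and highest) with epinephrine and 53.3, 68.1 and 92.8 CPM with vehicle. Every epinephrine library was above every vehicle library, and the log2 fold change was 1.32 (SE 0.17), a 2.50-fold difference. Tagln, which encodes the actin-binding protein SM22 alpha of smooth muscle, was at 110.3, 139 and 151 CPM with epinephrine and 71.9, 98.7 and 109 CPM with vehicle. The groups only just missed overlapping, with epinephrine 2 at 110.3 CPM above vehicle 5 at 109 CPM, and the log2 fold change was 0.53 (SE 0.11). Tagln (chr9:45929628-45936058) lies on the minus strand and shares 2480 bases with Pcsk7 on the plus strand. The strand setting of the counting is not given in the sources used here, so reads of the 2 genes may not be kept apart. Pcsk7 averaged 44.2 CPM with epinephrine and 40.5 CPM with vehicle (log2 fold change 0.13, edgeR adjusted p = 0.48).

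Vcl, which encodes vinculin, the link between integrin adhesions and actin, was at 227, 309 and 367 CPM (lowest, median and highest) with epinephrine and 201, 216 and 254 CPM with vehicle. Epinephrine 1 lay within the vehicle range and the other 5 epinephrine libraries above it, and the log2 fold change was 0.46 (SE 0.11). Vcl shares 571 bases with Ap3m1 on the other strand, which averaged 47.4 CPM with epinephrine and 44.1 CPM with vehicle (log2 fold change 0.10). Acta2, smooth muscle alpha actin, was at 202, 219 and 285 CPM with epinephrine and 90.4, 162 and 238 CPM with vehicle. Vehicle 2, the vehicle library with most epididymal RNA, was above 4 epinephrine libraries, and the log2 fold change was 0.51 (SE 0.19). Acta2 is nearly identical in coding sequence to other actin genes, so the share of reads given to it is uncertain.

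Of the 10 members, 6 were past an edgeR adjusted p of 0.05 and higher with epinephrine (Ccn1, Ccn2, Ankrd1, Srf, Tagln and Vcl) and 0 were lower, while 2.65% of all 16175 tested genes were higher, 3.58% lower and 6.23% called in either direction. In 5 members all epinephrine libraries were above all vehicle libraries, as in 2.04% of tested genes, and in 0 they were all below, as in 2.74% of tested genes. The members were chosen with this contrast known, and nothing is read from these counts. Their median log2 fold change was 0.52, and that of all tested genes -0.00059. The call of Vcl was lost when epinephrine 3, 4, 5 or 6 or vehicle 1, 3 or 6 was left out, with log2 fold changes from 0.40 to 0.53 over all 12 such fits, and Acta2 gained one without vehicle 2, at 0.69. The other members kept their calls in all 12.

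How the libraries of 1 group differed among themselves was not used to choose the members. After removal of group means, the log2 CPM of Amotl2 and Lats2 varied together with r = 0.96 over the 12 libraries, Ccn1 and Ankrd1 with r = 0.80, Srf and Ankrd1 with r = 0.82, and Tagln and Acta2 with r = 0.65. Acta2 ran against Amotl2 at r = -0.69 and against Srf at r = -0.66. Lats2 and Amotl2 also followed the endothelial score, the mean log2 CPM of 10 endothelial markers, at r = 0.97 and 0.90, the adipocyte score at r = 0.95 and 0.92, the macrophage score at r = 0.95 and 0.90 and the fibroblast score at r = 0.88 and 0.76, so this was not particular to 1 cell type. These values share library depth and tissue makeup and are given as descriptions.

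**Figure D2:**
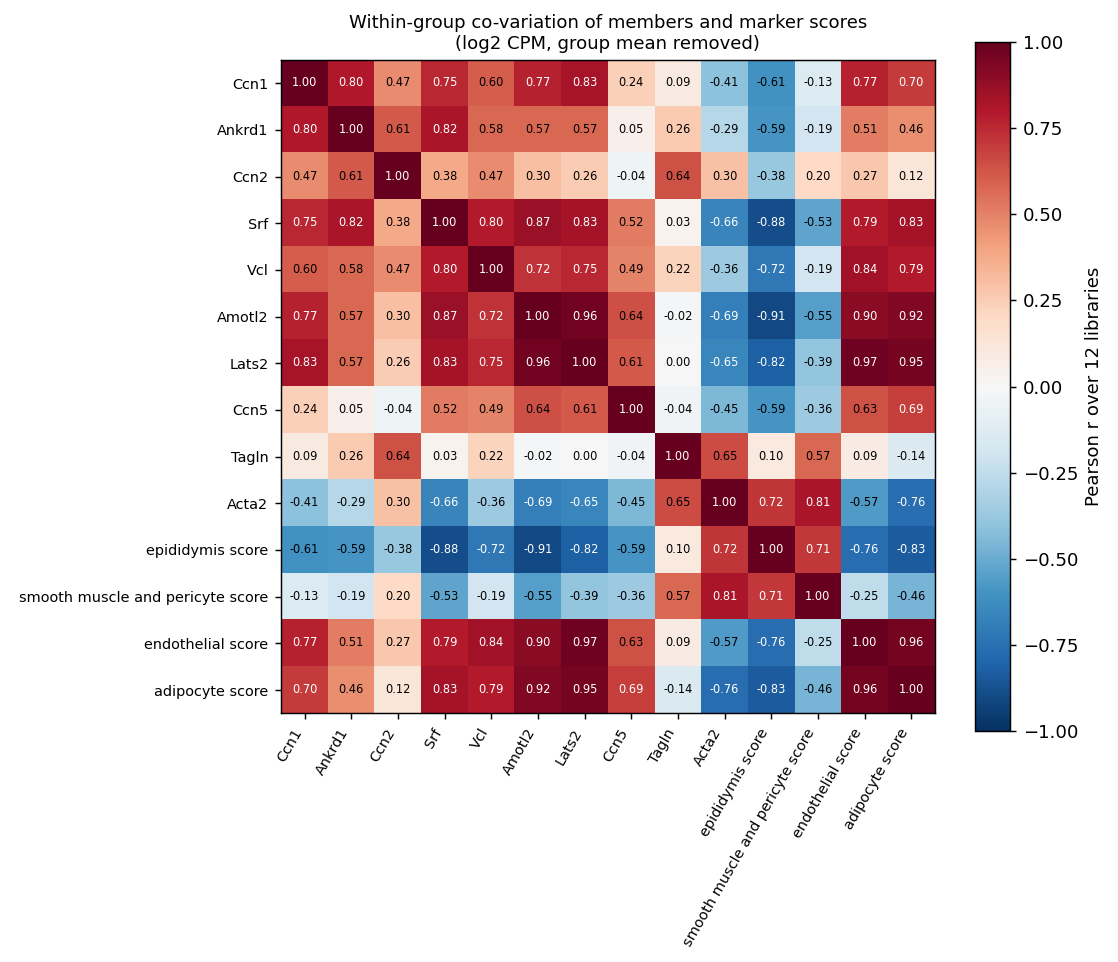
Pearson r over 12 libraries between members, and between members and marker scores (mean log2 CPM of a marker list), after the mean of each group was removed. Amotl2 and Lats2 form the closest pair of members at 0.96, while Lats2 and the endothelial score are at 0.97. Acta2 is negative with Srf, Amotl2 and Lats2 and positive with Tagln.

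Much of that variation went with the epididymal RNA. The epididymal RNA in turn fell with mouse number in both groups, apart from vehicle 1, and the permutations below moved libraries freely within a group without keeping mice of the same number together, so these relations and their p-values cannot be told apart from mouse number. Against the epididymis score, the mean log2 CPM of 10 epididymal genes, the within-group Pearson r of Amotl2 was -0.91 and Spearman coefficient -0.89 (permutation tests within groups; adjusted p = 0.0026 and 0.0216 over 20 relations), and r was -0.92 without vehicle 2 and vehicle 6, the libraries farthest from the median score. Srf followed with r = -0.88 and Spearman coefficient = -0.86 (permutation tests, adjusted p = 0.0063 and 0.0237), and r = -0.82 without those 2. Lats2 had r = -0.82 and Spearman coefficient = -0.66 (permutation tests, adjusted p = 0.00947 and 0.107), and r = -0.87 without them. Vcl had r = -0.72 and Spearman coefficient = -0.77 (permutation tests, adjusted p = 0.036 and 0.0682), and r = -0.78 without them. Acta2 ran the other way, with r = 0.72 and Spearman coefficient = 0.71 (permutation tests, adjusted p = 0.0436 and 0.078), which dropped to r = 0.43 without them and so rested on those libraries. Tagln had r = 0.10 and Spearman coefficient = -0.06 (permutation tests, adjusted p = 0.768 and 0.965), with r = -0.52 without them, and the remaining 4 members did not pass in either measure. Among these, r was -0.38 for Ccn2 and -0.82 without those 2 libraries, and -0.61, -0.59 and -0.59 for Ccn1, Ankrd1 and Ccn5, with -0.58, -0.60 and -0.39 without them. Within the epinephrine group alone r was -0.97 for Ccn1, -0.97 for Ankrd1 and -0.90 for Ccn2, and within the vehicle group -0.19, -0.05 and 0.56 for the same genes. The difference between the groups was not tested. The score itself was 5.73 ± 4.09 with epinephrine and 5.15 ± 4.30 with vehicle (SD, n = 6 each; p = 0.814 in an exact permutation test, two-sided, and 0.851 when adjusted over 8 marker lists).

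The differences between the groups stayed close to these sizes when the epididymal RNA was taken into account. With the score as a covariate, the log2 fold changes were 3.52 for Ccn1, 1.44 for Ccn2, 2.62 for Ankrd1, 1.35 for Srf, 0.53 for Tagln, 0.47 for Vcl and 0.52 for Acta2. Without the 3 libraries with high Gpx5 they were 3.77, 1.74, 2.93, 1.44, 0.63, 0.56 and 0.59 for the same genes.

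**Figure D3:**
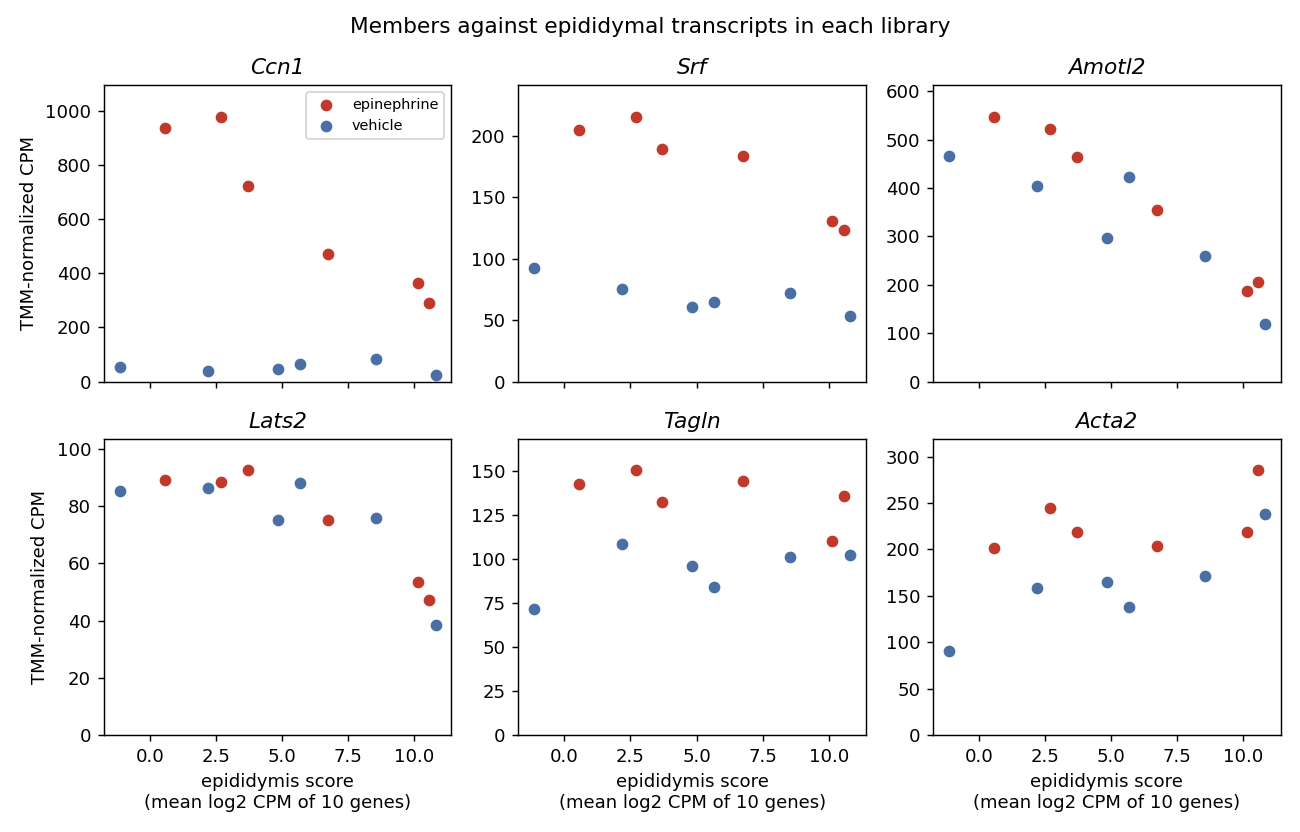
TMM-normalized CPM of 6 members (linear axes from 0) against the epididymis score of each library, with epinephrine and vehicle libraries in separate colours. Amotl2 and Lats2 follow 1 downward course in both groups, Srf keeps the groups apart along the whole score, and within each group the library with the highest score, epinephrine 1 or vehicle 2, holds the most Acta2.

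Smooth muscle cells and pericytes are known to carry much Tagln and Acta2. Of 12 markers of these cells that are not members, all 12 were tested and 0 were called in either direction in edgeR, 0 of them at an unadjusted p under 0.05, with a summed level of 1281 to 1711 CPM with epinephrine and 1171 to 1884 CPM with vehicle. None was at 0. Their score was 5.88 ± 0.0742 with epinephrine and 5.75 ± 0.314 with vehicle (SD, n = 6 each; p = 0.416 in the same exact permutation test and 0.851 after adjustment). In vehicle 6, which held the lowest Tagln and Acta2 of all libraries, the score was also lowest, at 5.17. This held for the contractile genes of the list and not for all of it: in vehicle 6, Actg2 was at 2.83 CPM and Cnn1 at 2.30 CPM, the lowest of all libraries, while the pericyte or vessel genes Rgs5, Mcam and Pdgfrb were at 90.6, 709 and 104 CPM, within the range of the other libraries. Actg2 reached 762 CPM in epinephrine 2 and 1083 CPM in vehicle 2, and the smooth muscle score went with the epididymis score at r = 0.71. No member passed against the smooth muscle score in either measure. The within-group r was 0.57 for Tagln and 0.81 for Acta2 (permutation tests within groups, adjusted p = 0.193 and 0.0916 over 20 relations). Without vehicle 6 and vehicle 3, r was -0.15 for Tagln and 0.62 for Acta2. For Tagln r was -0.88 within the epinephrine group and 0.87 within the vehicle group, and for Acta2 0.20 and 0.88. None of the 8 marker lists differed between the groups in the exact permutation test. The nearest was the skeletal and cardiac muscle list (p = 0.113, exact permutation test, adjusted p = 0.831). The part of the marker lists in the members' differences was not tested further.

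The genes whose within-group pattern was most like that of Ccn1, among 13082 expressed genes with a symbol, were Wdr76, Stambpl1, Ptgis, Kcnn4 and Prr32, with r from 0.94 to 0.97 over 12 libraries. For Ccn2 they were Ppp1r3f, Aldh16a1, Commd6, Fmod and Tkfc, with r from 0.87 to 0.89, and for Tagln Lmod1, Jmjd6, Otub2, Bud13 and Mgrn1, with r from 0.84 to 0.88. Lmod1 is a smooth muscle actin nucleator. Other nearest genes, chosen after their values were seen, were Myh11, the smooth muscle myosin gene, for Acta2 (r = 0.97), Actg1, cytoplasmic gamma actin, for Ankrd1 (r = 0.93), and Jun, a transcription factor gene, second for Srf (r = 0.96). The first for Srf was Slc25a25 (r = 0.97). These genes themselves varied with the epididymis score within groups, at r = 0.73 for Myh11, -0.77 for Actg1, -0.84 for Jun and -0.86 for Slc25a25. The part of the epididymal RNA in these likenesses was not tested. For Amotl2, Lats2, Vcl and Ccn5 the nearest were Ptprr, Rapgef1, Eno1 and Ppp1r3e (r = 0.986, 0.996, 0.978 and 0.960). The nearest gene of every member had an r of at least 0.88, so a high r does not set these members apart.

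Beyond the members, genes of the actin cytoskeleton that MRTF and SRF are known to drive rose in part. This list and the lists that follow were chosen with earlier results of these data known. Their counts are therefore descriptions and no evidence of their own. Of 29 listed and tested, 8 were higher and 0 lower with epinephrine (edgeR adjusted p under 0.05), which is 27.6% against the 2.65% of all tested genes, and all 29 had a positive log2 fold change, with a median of 0.32. Scaled by library size alone, which moved the median of all genes to -0.11, 24 were positive, and without the 3 libraries with high Gpx5 28 were. Actg1 was at 409, 573 and 657 CPM (lowest, median and highest) with epinephrine and 238, 263 and 304 CPM with vehicle, so that the groups were far apart (edgeR adjusted p = 0.000859 for a log2 fold change of 1.04 with SE 0.13). Csrp1, a LIM-domain actin-bundling protein gene, was at 249, 331 and 367 CPM with epinephrine and 170.01, 176 and 196 CPM with vehicle (edgeR adjusted p = 0.000932 for a log2 fold change of 0.82 with SE 0.11). Pdlim7, which tethers kinases to actin, rose 1.65-fold (edgeR adjusted p = 0.00333). Fhl2, a LIM-only cofactor gene, rose 1.85-fold (edgeR adjusted p = 0.00548). The other 4 were Actb, Filip1l, Tgfb1i1 and Zyx, at log2 fold changes from 0.61 to 1.13. Reads of Actb and Actg1 may be shared with each other and with their processed copies. The count was 18 in limma-voom with sample weights and 13 without the 3 libraries with high Gpx5. Over all genes the count higher also rose in these settings, from 428 in the main fit to 1026 and 786.

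Genes of contractile smooth muscle, which stand in that list and in the smooth muscle markers alike, did not pass. Myh11, Cnn1, Des, Lmod1 and Actg2 had log2 fold changes of 0.13, 0.53, 0.21, 0.17 and 0.10, with an SE of 1.55 for Actg2 and 0.54 for Cnn1. Of the 29 cytoskeletal genes, 17 had an unadjusted p under 0.05 in edgeR, and none of the genes just named did. Mylk, Tpm1, Tpm2 and Myl9 were among the 17 and did not pass after adjustment. In which cell types the 8 that passed were higher was not tested, and Tagln, a smooth muscle gene among the members, was called higher. Exact CArG boxes were present in 7 of the 30 promoter windows found for the list, against 1.63% of all windows. Actg1, Fhl2 and Filip1l were among the genes of these 7 windows, and so were Cnn2, Fhl1 and Myl9, which did not pass.

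**Figure D4:**
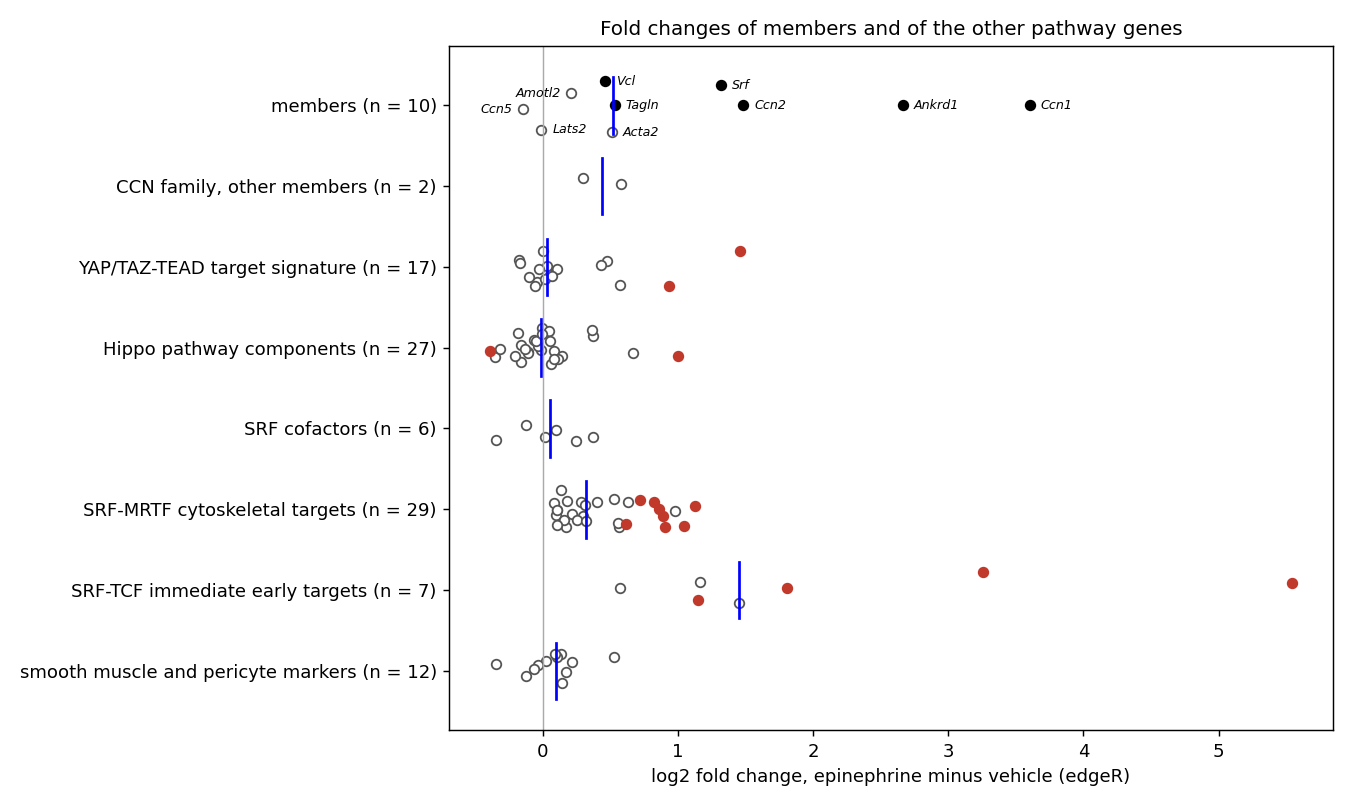
Log2 fold change (epinephrine minus vehicle, edgeR) of each tested gene in the members and in lists of other genes, filled where the adjusted p was under 0.05 and with the median of each list as a blue line. Cytoskeletal targets of SRF and MRTF lie to the right of 0 with a median of 0.32, while YAP signature genes and Hippo components centre near 0.

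The immediate early genes that SRF serves with TCF proteins were higher in 4 of 7 cases and lower in 0, where 2.65% of all tested genes were higher and 3.58% lower. These were Fosb, Fos, Ier2 and Mcl1, while Egr2, Egr3 and Junb did not pass (log2 fold changes 0.57, 1.45 and 1.17, edgeR adjusted p = 0.836, 0.342 and 0.23). Fosb averaged 906 CPM with epinephrine and 19.4 CPM with vehicle, and Fos averaged 808 and 84.4 CPM in the same order (edgeR adjusted p = 0.00035 and 0.00411). Further, Ier2 rose 3.50-fold and Mcl1, a survival gene of the BCL2 family, 2.22-fold (edgeR adjusted p = 0.00219 and 0.00521). The genes of the SRF cofactors themselves, Mrtfa, Mrtfb, Myocd, Elk1, Elk3 and Elk4, showed 0 of 6 called in edgeR, DESeq2 and limma, and 0 at an unadjusted edgeR p under 0.05. The nearest were Elk3 (edgeR adjusted p = 0.306 for a log2 fold change of -0.34 with SE 0.16) and Myocd (edgeR adjusted p = 0.575 for 0.37 with SE 0.26).

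Genes of a published YAP and TAZ target signature, taken without its members Ccn1, Ccn2, Ankrd1, Amotl2 and Lats2, centred near 0. Of 17, 2 were higher and 0 lower, which is 11.8% against 2.65% of all tested genes, and the median log2 fold change was 0.03. F3, the tissue factor gene that starts blood clotting, was at 75.6, 178 and 239 CPM (lowest, median and highest) with epinephrine and 33.7, 67.2 and 78.4 CPM with vehicle (edgeR adjusted p = 0.0114 for a log2 fold change of 1.46 with SE 0.29). Nuak2, a kinase gene, was at 9.14, 15.9 and 18.6 CPM with epinephrine and 6.57, 7.67 and 9.52 CPM with vehicle (edgeR adjusted p = 0.00702 for a log2 fold change of 0.94 with SE 0.17). In both genes the lowest epinephrine library lay within the vehicle range. The other 15 did not pass, with log2 fold changes from -0.17 for Ptpn14 to 0.57 for Fjx1. Tgfb2, a growth factor gene, was nearest to the threshold (edgeR adjusted p = 0.0527 for a log2 fold change of 0.43 with SE 0.12).

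Components of the Hippo pathway showed 1 higher and 1 lower of 27, or 3.70% each, with a median log2 fold change of -0.01. Of all tested genes 2.65% were higher and 3.58% lower, so the pathway as a list was near the background, and its 2 called genes are given as single genes. Vgll4, whose protein competes with YAP for TEAD, was at 40.2, 55.6 and 63.6 CPM (lowest, median and highest) with epinephrine and 22.6, 25.1 and 31.5 CPM with vehicle, and the groups did not overlap (edgeR adjusted p = 0.00137 for a log2 fold change of 1.00 with SE 0.14). Taok2, a kinase gene upstream of the cascade, averaged 118 ± 10.6 CPM with epinephrine and 155 ± 17.2 CPM with vehicle (SD, n = 6 each; edgeR adjusted p = 0.0212 for a log2 fold change of -0.39 with SE 0.09). Its adjusted p passed 0.05 when epinephrine 2, epinephrine 3, vehicle 3 or vehicle 5 was left out (edgeR, up to 0.0581). Yap1 averaged 130.03 ± 10.2 CPM with epinephrine and 123 ± 4.87 CPM with vehicle, and Wwtr1, which encodes TAZ, 192 ± 45.9 and 174 ± 45.4 CPM in the same order (SD, n = 6 each; edgeR adjusted p = 0.603 and 0.867).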

How the data were processed

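Total RNA from eWAT of 12 mice, 6 per group, was sequenced after SMARTER mRNA-Seq library preparation, according to the labels' protocols. Per the submitters' processing notes, the tools included cutadapt, HISAT2, featureCounts, FastQC and DESeq2, with the build mm10. Tool versions, annotation and strand setting are not stated in these sources. The authors deposited whole-number counts of reads per gene, without normalization, and a second table of variance-stabilized values on a log2-like scale for 20185 genes. Gene lengths are those of the count table. No 2 libraries were identical among 66 pairs.

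Counts were filtered with filterByExpr (at least 10 reads in enough libraries and 15 in all), given TMM factors and tested over 16175 genes with edgeR 4.0.16 (quasi-likelihood F test, robust; R 4.3.3; limma 3.58.1), with Benjamini-Hochberg adjustment over all tested genes and a threshold of 0.05. The SE is the size of the log2 fold change fitted without a prior count, divided by the square root of F. The printed log2 fold changes of edgeR include its small prior count. Scores use log2 CPM with a prior count of 1. The test was checked on simulated counts. Exact permutation tests with 6 libraries a group cannot go below 0.00216; relations between members and scores used 100000 permutations within groups. The members and lists were chosen with earlier results of these data known. Named are all members, the genes past the threshold in a list (or the 4 with the smallest p where more than 6 passed, or the 2 nearest where none did) and the 5 genes most like Ccn1, Ccn2 and Tagln; others named were chosen after their values were seen. The genes of 1 further list are not reported here. Mice are separate animals per the labels. Titles number the mice 1 to 6 in each group. Deviations from group means in libraries of the same number were correlated across genes, with r from 0.262 to 0.799 in the 6 pairs. All were above the 0.1 set for pairing, so a planned second fit had the number as a block. Libraries of different numbers were not compared, and epididymal RNA fell with mouse number in both groups, apart from vehicle 1. These r therefore cannot show that the mice were paired. The fit was also repeated with other scalings (RLE, upper quartile, library size only), with 2 other filters, in DESeq2 1.42.0 and in weighted limma-voom, on the deposited log2-like values in limma, with an epididymis covariate, after removing the 3 libraries whose Gpx5 exceeded 0.5% of counts, and after removing each library in turn.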

Additional observations from a re-analysis of the deposited data

Results flagged for a closer look

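Among 68 groups of 6 values examined for members, named genes and marker scores, 6 held a library whose gap to its nearest neighbour was beyond the Dixon critical share of the range of the group. Chance alone gives about 1 in 20. Vehicle 2 held 38.4 CPM of Lats2, while the other 5 libraries of its group held 75.2 to 87.9 CPM. In the same library the scores of endothelial markers (5.80, next 6.65), adipocyte markers (9.58, next 10.7) and macrophage markers (6.27, next 7.18; all mean log2 CPM) were far below the rest of the vehicle group. Vehicle 2 also had the highest epididymis score, 10.8. Myocd, the gene of a smooth muscle SRF cofactor, was at 1.93 CPM in epinephrine 1, against at most 1.39 CPM in the other epinephrine libraries. Fhl2 was at 5.72 CPM in vehicle 1, against at most 4.04 CPM in the other vehicle libraries.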

How the results depend on the processing

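Over 11 other settings, Ccn1, Ccn2, Ankrd1, Srf and Tagln stayed past the threshold and Ccn5, Amotl2 and Lats2 short of it. Acta2 was called in limma-voom and with the epididymis covariate, and Vcl was not called with no filter. Log2 fold changes stayed within 1 SD of the libraries except that of Ankrd1 on the variance-stabilized values, 0.52.

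Over all genes, the counts higher and lower were 428 and 579. They were 760 and 873 in DESeq2, 1026 and 1503 in limma-voom with sample weights, 645 and 961 with the epididymis covariate and 786 and 1028 without the 3 libraries with high Gpx5. With library size alone 1466 were lower, and with the replicate block 365. Leaving out 1 library gave 317 to 549 higher and 276 to 797 lower; of the epinephrine libraries, removing number 3, 4 or 5 gave 362, 314 and 373 lower, and of the vehicle libraries, removing number 1, 3 or 4 gave 353, 364 and 276.

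Cytoskeletal SRF targets higher were 18 in limma-voom, 13 without the 3 libraries, 12 in DESeq2 and 10 with the epididymis covariate. They were 6 to 10 with 1 library left out. Immediate early SRF targets higher were 6 in limma-voom. Hippo components lower were 2 with upper quartile scaling, DESeq2, limma-voom or the epididymis covariate and 3 with library size alone, and 0 to 2 with 1 library left out (0 without epinephrine 2, epinephrine 3 or vehicle 5, 2 without epinephrine 4 or vehicle 2); those higher were 2 in limma-voom. Of the other CCN genes 1 was higher without the 3 libraries. The cause was not tested in any of these. With the replicate block, no call changed among the members and the list genes named under the rule given above. Cytoskeletal SRF targets higher were 10 in place of 8 and immediate early SRF targets higher 5 in place of 4. The added immediate early gene was Egr2, Egr3 or Junb, none of which passed in the main fit.

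Marker score differences that changed sign with 1 library left out were those of endothelial (-0.185 to 0.0926), macrophage (-0.215 to 0.101), adipocyte (-0.049 to 0.364) and epididymis markers (-0.683 to 1.74); none passed in any setting. The fold change of Ankrd1 rests on 7 to 14 reads per vehicle library.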
